A study of Mus musculus with 9 samples.

Results

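The genes described here are 10 oncofetal and liver cancer markers, Afp, Gpc3, Golm1, Mdk, Igf2bp2, Igf2bp3, Lin28b, Bex1, Tff3 and Spink1, out of the 55401 genes counted in each liver. They were chosen by symbol with their counts in these same livers already known, so their levels and fold changes are given as a description, with no p-value. Oncofetal genes are active in the fetal liver, are shut down around birth and return in many hepatocellular carcinomas (HCCs). Several of their products are secreted or shed into blood, which is why AFP, glypican-3 and Golgi protein 73 (the product of Golm1) are followed as serum or tissue markers of HCC. The group also holds RNA-binding proteins of the fetal program (Lin28b, Igf2bp2, Igf2bp3), a heparin-binding growth factor (Mdk), and proteins normally made in other tissues (Bex1 in neurons, Tff3 in mucosa, Spink1 in the pancreas).

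Whole-liver RNA was sequenced from 9 female mice, 3 per group: healthy livers with no injection listed, untreated HCC and miR-22-treated HCC. The age given was 6 weeks for all groups, the healthy mice included. HCC was induced at 6 weeks of age by hydrodynamic tail vein injection of sleeping beauty transposon plasmids for AKT and NRAS, which enter mainly hepatocytes. The deposited growth notes list a β-catenin plasmid beside these, whereas the methods name the sequenced model as RAS/AKT. At week 1 the mice with HCC received adeno-associated virus serotype 8 (AAV8), either blank or carrying miR-22 under a CMV promoter, and both HCC groups were harvested at week 5, 4 weeks after the virus. No harvest week was given for the healthy mice. In comparisons with healthy livers, tumor, plasmid injection, AAV8 and any difference in age at harvest cannot be told apart. For the strain, the labels hold both C57BL/6 and FVB/N and the methods name FVB/N, and labels and methods differ in the AAV8 dose. Totals ran from 16664659 to 23908392 counts per library, and the labels number the HCC livers 2 to 4. Hepatocyte markers (8 genes summed) were abundant in every library, with sums of 133246 to 138142 CPM (counts per 1000000 counts of the library, after TMM scaling) for healthy livers, 56463 to 70334 CPM for untreated HCC and 83530 to 104076 CPM for treated HCC. A cholangiocyte list of 8 genes was at 48.8 to 60.7, 3371 to 6304 and 1588 to 2740 CPM in the same groups, and none of its genes was at 0 in all livers of a group. Spp1, osteopontin, made up most of that sum in HCC (3239 to 6077 CPM untreated and 1527 to 2642 CPM treated), and the other 7 genes summed to 25.1 to 28.8, 132 to 227 and 61.2 to 98.1 CPM. A proliferation list of 6 genes was at 9.74 to 14.5, 145 to 185 and 90.7 to 135 CPM. A stellate cell list of 7 genes was at 159 to 178, 553 to 706 and 352 to 474 CPM, and a neutrophil list of 6 genes was at 0.315 to 1.82, 8.78 to 11.7 and 8.56 to 13.2 CPM. In the stellate list Col1a1 and Col1a2 made up most of the untreated HCC sums, and Lrat, the enzyme that stores vitamin A, was lower in untreated HCC (9.82 to 23.7 CPM) than in healthy livers (29.9 to 48.3 CPM). The cholangiocyte sum with or without Spp1 and the proliferation and stellate sums were lowest in healthy livers and highest in untreated HCC, the order of most of the markers below, and the hepatocyte sum had the reverse order. The part of these cell types in the results was not tested. In whole tissue, more cells of a type and more RNA per cell cannot be told apart.

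Afp encodes alpha-fetoprotein, the albumin-like serum protein of the fetus. It lies on chromosome 5 at 90638584–90656766, plus strand (GRCm39), next to its family members Alb and Afm. Healthy livers had 10.9, 17.4 and 14.3 CPM of Afp. Untreated HCC livers 2, 3 and 4 had 1976, 1321 and 994 CPM, and miR-22-treated livers 2, 3 and 4 had 863, 537 and 937 CPM. The 3 groups did not overlap, although the highest treated liver came close to the lowest untreated one. The means were 14.2 ± 3.23 in healthy livers, 1430.4 ± 499.8 in untreated HCC and 779 ± 213 in treated HCC (SD, n = 3). Untreated HCC was 100.5-fold above healthy (log2 fold change 6.65, SE 0.33), and treated HCC was still 54.8-fold above healthy (5.78, SE 0.32). With miR-22, Afp was at 54.5% of its untreated level (log2 fold change −0.88, SE 0.26). Per kilobase of annotated exon, Afp moved from rank 5521 of 15635 genes in healthy livers to rank 44 in untreated HCC and rank 121 after treatment.

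Relative to albumin, its adult counterpart, Afp had 0.0106 to 0.0171 counts per 100 Alb counts in healthy livers. The values were 4.46, 3.13 and 1.94 in untreated livers 2, 3 and 4, and 1.26, 0.737 and 1.56 in treated livers 2, 3 and 4. The highest treated ratio stayed below the lowest untreated one. Alb was also higher in treated HCC (59936 to 72930 CPM) than in untreated HCC (42203 to 51152 CPM), which adds to the gap in this ratio. That difference was not called, except without untreated replicate 4 (log2 0.64) or treated replicate 4 (0.63). Alb itself fell in untreated HCC (log2 fold change −1.14, SE 0.20, edgeR adjusted p = 0.000352), while the differences of Afm (−0.57, adjusted p = 0.000513) and Gc (−0.54, adjusted p = 0.00589) were below the 1.5-fold limit set for a call, which Afm passed without untreated replicate 4 (−0.65).

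Gpc3, glypican-3, is a heparan sulfate proteoglycan anchored to the cell surface that binds growth factors and Wnt ligands. The gene spans 51361303–51703137 on the X chromosome, minus strand. Its healthy values were 0.377, 1.45 and 0.604 CPM, from 6, 23 and 11 counts. It reached 80.7, 74.2 and 71.8 CPM in untreated livers 2, 3 and 4, the tightest group of any of the 10 genes (coefficient of variation 6.09%). Treated livers 2, 3 and 4 had 45.5, 39.4 and 56.3 CPM, all below every untreated liver and all above every healthy one. Untreated HCC was 93.4-fold above healthy livers (log2 6.55, SE 0.26), a figure that rests on few healthy counts and ran from 6.21 without healthy replicate 1 to 7.22 without healthy replicate 2 on the log2 scale. With miR-22 it stood at 62.3% of the untreated mean (log2 −0.68, SE 0.17).

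Golm1 encodes a type II membrane protein of the Golgi that is cleaved by furin-like proteases and secreted. It sits on chromosome 13 at 59782440–59828564, minus strand. Its CPM were 2.58, 3.72 and 2.97 in healthy livers, 80.0, 82.3 and 69.2 in untreated livers 2, 3 and 4, and 41.9, 42.6 and 59.0 in treated livers 2, 3 and 4. The 3 groups were again separate. Untreated HCC was 24.97-fold above healthy livers (log2 4.64, SE 0.18), and treated HCC was at 62.0% of untreated HCC (log2 −0.69, SE 0.14). The libraries do not mark strand, and 1758 exonic bases of Golm1 are shared with Naa35 on the other strand. Naa35 had 40.1 to 40.3 CPM in healthy livers, many times the Golm1 level there, and 30.4 to 33.7 CPM in untreated HCC. The part of Naa35 reads in the Golm1 counts was not tested.

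**Figure D1:**
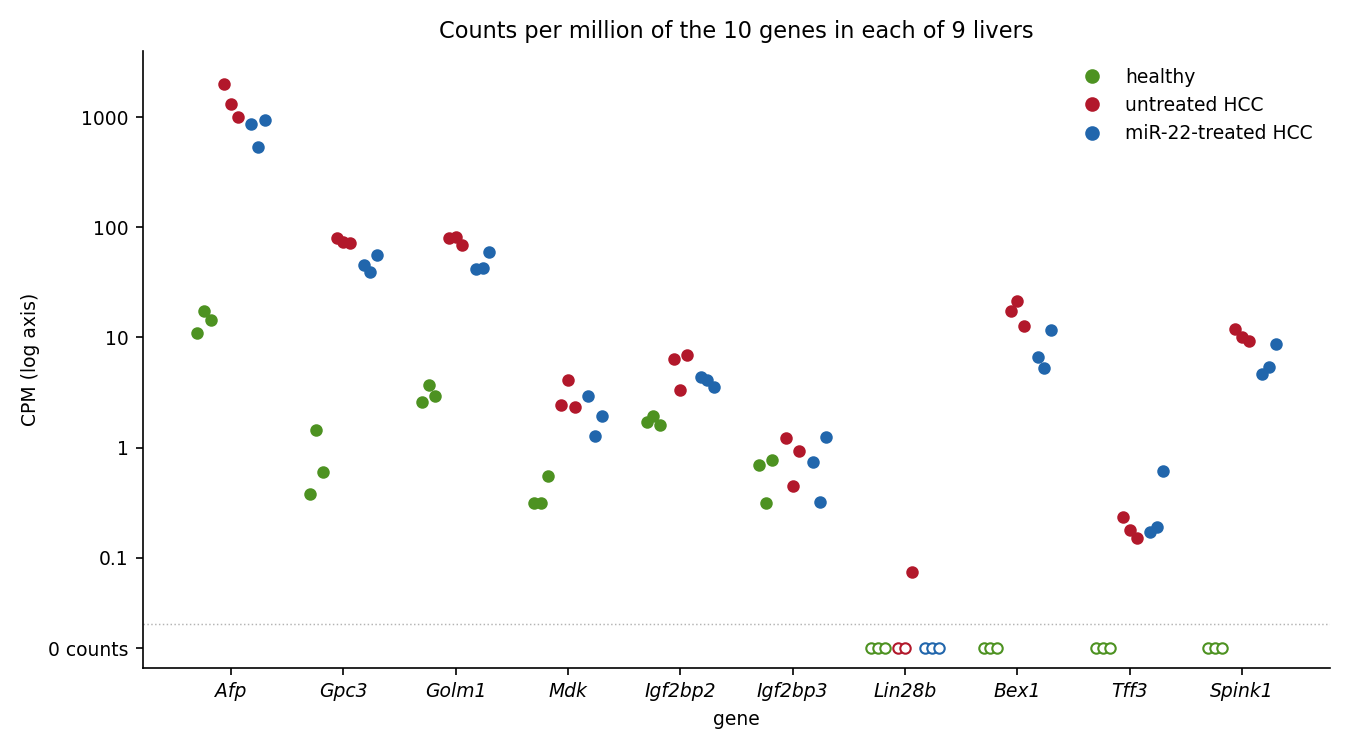
CPM (log axis) of the 10 genes, 1 point per liver, in healthy livers (green), untreated HCC (red) and miR-22-treated HCC (blue); open points are livers with 0 counts. Afp, Gpc3 and Golm1 form 3 separate groups, Bex1, Tff3 and Spink1 have 0 counts in the 3 healthy livers, and the groups of Igf2bp3 overlap.

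Bex1 is a small brain-expressed X-linked protein that takes part in neurotrophin signaling. The gene is short, at 135114720–135116861 on the X chromosome, minus strand. No count was found in any healthy liver, which allows up to 0.165 to 0.189 CPM per library if 3 counts are taken as the floor. Untreated livers 2, 3 and 4 had 17.4, 21.3 and 12.6 CPM (372, 476 and 338 counts), and treated livers 2, 3 and 4 had 6.63, 5.29 and 11.7 CPM. Treated liver 4 lay just below untreated liver 4, and the groups did not overlap. Against the floor, Bex1 was at least 94.7-fold higher in untreated HCC and at least 43.6-fold higher in treated HCC than in healthy livers. It had the lowest share left after treatment among the genes that passed the count filter, 46.0% of the untreated mean (log2 −1.11, SE 0.28). Bex1 shares 813 exonic bases with Tceal7 on the opposite strand, which had 8 counts in all 9 libraries together, and its near copy Bex2 had at most 0.515 CPM in any liver.

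The sequences just before the annotated start sites of these 4 genes, which were higher in untreated HCC and called lower with miR-22, are printed to show their base composition and motifs. They are the 120 bases upstream of the RefSeq start, 5′ to 3′ on the gene's strand, in build GRCm38.p6: Afp chr5:90490594-90490713, Gpc3 chrX:52613975-52614094, Golm1 chr13:59675785-59675904 and Bex1 chrX:136215514-136215633. Capitals mark the letters TATAAA, those of the CCAAT box and those of the GC box GGGCGG, on either strand. The TATAAA of Afp begins at −7 from the RefSeq start, and the starts used in these livers were not mapped.
Afp: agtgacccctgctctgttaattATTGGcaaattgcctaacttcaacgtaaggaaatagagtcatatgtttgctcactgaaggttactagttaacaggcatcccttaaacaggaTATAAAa
Gpc3: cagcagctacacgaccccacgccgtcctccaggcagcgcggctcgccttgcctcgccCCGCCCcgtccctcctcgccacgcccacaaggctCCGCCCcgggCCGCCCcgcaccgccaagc
Golm1: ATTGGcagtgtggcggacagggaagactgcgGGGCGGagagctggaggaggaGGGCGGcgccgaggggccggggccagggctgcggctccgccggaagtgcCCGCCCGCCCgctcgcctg
Bex1: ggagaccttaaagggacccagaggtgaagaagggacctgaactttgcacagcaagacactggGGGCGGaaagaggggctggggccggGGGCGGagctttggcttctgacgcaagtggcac

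The Afp promoter differed in base composition from the others: 37.5% of the 120 bases were G or C, against 78.3% in Gpc3, 77.5% in Golm1 and 61.7% in Bex1. In the 300-base window around the start (250 bases before and 50 after), Afp had 3 CpG dinucleotides, Bex1 had 8 and Gpc3 and Golm1 had 30 each, where the median of all 32851 RefSeq windows was 7. Of the 10 genes, 7 had a window. TATAAA was in the windows of Afp and Golm1 and in 13.6% of all windows, CCAAT in those of Afp, Golm1, Gpc3, Igf2bp3 and Lin28b and in 37.4% of all, and GGGCGG in those of Bex1, Golm1, Gpc3 and Igf2bp2 and in 35.7% of all. CACGTG was found in Bex1, Igf2bp3 and Lin28b and in 7.15% of all windows, and GGAATG in Bex1 and in 14.7% of all. TGANTCA (7.81% of all windows) and TGTTTAC (3.65%) matched none of the 7. All motifs were searched on both strands, and a match describes the letters of the window only.

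Spink1 encodes a secreted inhibitor of trypsin that protects the pancreas and is also produced by tumors. The gene lies on chromosome 18 at 43861139–43870622, minus strand. Healthy livers had 0 counts. Untreated livers 2, 3 and 4 had 11.9, 10.1 and 9.26 CPM, and treated livers 2, 3 and 4 had 4.63, 5.42 and 8.75 CPM. All treated livers were below all untreated ones, with treated liver 4 close to untreated liver 4. Spink1 was at least 57.5-fold higher in untreated HCC and at least 34.7-fold higher in treated HCC than the healthy floor. Treated HCC was at 60.3% of untreated HCC (log2 −0.72, SE 0.24), which missed the adjusted p needed for a call in the main edgeR fit. With all livers it was called by DESeq2, with DESeq2 size factors, with upper-quartile scaling and with no filter on low counts. It was also called without treated replicate 4, where the log2 fold change was −1.05.

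Pancreatic transcripts were found in HCC livers and were most abundant in 1 treated liver. The sum of 15 acinar pancreas markers was 603 CPM in treated liver 2, against 34.5 and 21.1 CPM in treated livers 3 and 4, 20.1 to 41.3 CPM in untreated HCC and 25.9 to 44.9 CPM in healthy livers, where 11 of the 15 markers were at 0 in all 3 livers. Cela1, a marker that healthy livers had at 25.1 to 44.5 CPM, made up most of the low sums. The other 14 markers summed to 0.385 to 0.817 CPM in healthy livers, to 5.25, 1.21 and 18.8 CPM in untreated livers 2, 3 and 4 and to 533, 1.79 and 0.951 CPM in treated livers 2, 3 and 4. Prss2, a trypsinogen, had 51.1 CPM in treated liver 2 and at most 1.98 CPM in any other liver. Of the 6 HCC livers, treated liver 2 had the lowest Spink1. Leaving that liver out gave a log2 fold change of −0.54 for Spink1 between treated and untreated HCC. The part of pancreatic transcripts in the Spink1 values was not tested. Prss1 had at most 0.128 CPM in any liver and Prss3 had none. Egfr, whose product has been described as a receptor for SPINK1, fell in untreated HCC (log2 −0.93, SE 0.20, edgeR adjusted p = 0.00163) and rose with miR-22 (1.75, SE 0.20, adjusted p = 0.000216). It was highest in treated HCC, where its level was above that of healthy livers (0.82, SE 0.20, adjusted p = 0.00663).

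**Figure D2:**
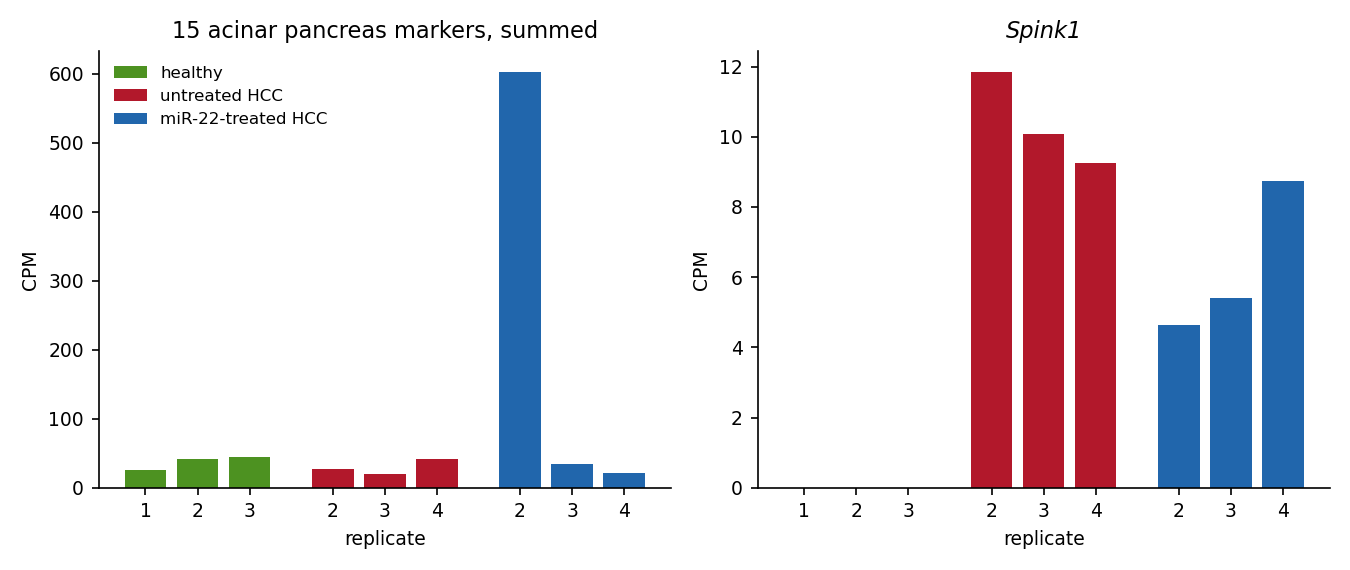
Left, summed CPM of 15 acinar pancreas markers in each liver; right, CPM of Spink1 in the same livers, both by replicate number and on linear axes from 0. The acinar sum stands out in treated replicate 2 (603 CPM), the HCC liver with the lowest Spink1 (4.63 CPM).

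Mdk encodes midkine, a heparin-binding growth factor of the embryo. It is located on chromosome 2 at 91760143–91762846, minus strand. Counts were low. Healthy livers had 0.314, 0.315 and 0.549 CPM (5, 5 and 10 counts), untreated livers 2, 3 and 4 had 2.44, 4.12 and 2.35 CPM, and treated livers 2, 3 and 4 had 2.92, 1.28 and 1.95 CPM. All HCC livers were above all healthy ones, but treated liver 2 exceeded untreated livers 2 and 4, so the HCC groups overlapped. Untreated HCC was 7.35-fold above healthy livers (log2 2.88, SE 0.43) and treated HCC 5.10-fold (2.35, SE 0.45). The log2 fold change with miR-22, −0.53 (SE 0.35), ran from −0.86 without treated replicate 2 to −0.22 without untreated replicate 3.

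The 3 RNA-binding genes are given separately, and differences between them were not tested. Igf2bp2 and Igf2bp3 encode proteins that stabilize mRNAs such as that of Igf2, and LIN28B blocks maturation of the let-7 miRNAs, which in turn target the mRNAs of all 3. Igf2bp2 (chromosome 16, 21877759–21982499, minus strand) had 1.70, 1.95 and 1.59 CPM in healthy livers, 6.37, 3.31 and 6.95 CPM in untreated livers 2, 3 and 4, and 4.35, 4.15 and 3.57 CPM in treated livers 2, 3 and 4. Each HCC liver was above each healthy one, and untreated liver 3 was below the 3 treated livers. Untreated HCC was 3.18-fold above healthy (log2 1.67, SE 0.29) and treated HCC 2.29-fold (1.20, SE 0.29). The difference with miR-22 was −0.47 (SE 0.26) and, of the alternatives run, was called only without untreated replicate 3 (−0.73).

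Igf2bp3 (chromosome 6, 49062144–49192447, minus strand) had 0.692, 0.315 and 0.769 CPM in healthy livers, 1.22, 0.448 and 0.934 CPM in untreated livers 2, 3 and 4, and 0.744, 0.319 and 1.24 CPM in treated livers 2, 3 and 4. All 3 groups overlapped, at 5 to 26 counts per library. The log2 fold change was 0.53 (SE 0.55) for untreated HCC against healthy livers and −0.14 (SE 0.53) with miR-22, and the latter turned to 0.16 without untreated replicate 2 and to 0.20 without treated replicate 3. These counts are uncertain in a further way, because 1685 exonic bases of Igf2bp3 overlap Malsu1 on the opposite strand, and Malsu1 had 12.9 to 17.7 CPM, many times the Igf2bp3 level. Lin28b (chromosome 10, 45252646–45362557, minus strand) had 2 counts in untreated liver 4 and 0 in the other 8 livers, which allows 0.134 to 0.191 CPM in each of those, so no fold is given.

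Tff3, trefoil factor 3, is a small peptide secreted by goblet cells and other mucous epithelia, and its gene lies on chromosome 17 at 31344280–31348620, minus strand. It had 0 counts in healthy livers, 5, 4 and 4 counts in untreated livers 2, 3 and 4, and 3, 3 and 13 counts in treated livers 2, 3 and 4. Only treated liver 4 stood clear of the rest, at 0.618 CPM against at most 0.234 CPM elsewhere. Against the floor the gene was at least 1.04-fold higher in untreated HCC and at least 1.81-fold higher in treated HCC, which rests on treated liver 4, since the other 2 treated livers were at the floor of 3 counts and give no fold without it. With no filter on low counts Tff3 was called higher in both comparisons with healthy livers. The sum of 8 goblet and intestinal markers was 52.5 to 58.9 CPM in healthy livers, 60.4 to 82.6 CPM in untreated HCC and 85.6, 106 and 112 CPM in treated livers 2, 3 and 4. Most of it was Fabp2, a fatty acid binding protein of enterocytes, at 50.7 to 56.2, 48.6 to 74.9 and 72.2 to 106 CPM in the same groups, and Vil1, villin, had 0.315 to 0.880, 3.96 to 9.31 and 3.12 to 4.19 CPM. Of the goblet markers, Muc2, Spdef and Agr2 were at or near 0 (at most 0.134 CPM in any liver). Clca1 had 0 counts in healthy livers, 0.187 to 0.609 CPM in untreated HCC and at most 0.0951 CPM in treated HCC, and Zg16, which is also made in pancreatic acini, was at most 0.336 CPM apart from 8.69 CPM in treated liver 2. The part of such cells in the Tff3 counts was not tested. Of the other trefoil and mucosal genes, Tff2 was called higher in untreated HCC (log2 2.41, SE 0.70), at 0.515 to 2.46 CPM against 0.165 to 0.315 CPM in healthy livers. It passed the filter through the HCC livers, so no p-value is given, and 1 untreated liver held 55 of its 83 counts in that group. The call was lost with the replicate block and without untreated replicate 3 (1.36). Fcgbp and Muc1 were not called, and Tff1 did not pass the filter.

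Both Igf2bp genes and Lin28b carry the letters that the let-7 seed can pair with, and Golm1 those of miR-22. The mature sequences are from RefSeq (GRCm38.p6), with the seed, bases 2 to 8, in capitals.
miR-22-3p: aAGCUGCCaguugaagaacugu
let-7a-5p: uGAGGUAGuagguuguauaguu
let-7g-5p: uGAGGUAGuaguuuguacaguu

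In the 3′ UTR of the canonical GENCODE transcripts, a perfect match to the miR-22 seed occurred in Golm1 alone of the 10 genes, 2 times in 2666 bases. Of 20721 genes with a 3′ UTR, 14.0% had at least 1 such match. Let-7 matches numbered 1 in Igf2bp2, 1 in Igf2bp3 and 4 in Lin28b, and 9.90% of all genes had at least 1. The remaining 6 genes, Afp, Gpc3, Mdk, Bex1, Tff3 and Spink1, have short 3′ UTRs (86 to 359 bases, where the median over genes was 1084) and neither match. The sites are shown 5′ to 3′ in the sense of the mRNA, the matched letters in capitals, in GRCm39: Golm1 chr13:59784810-59784833 and chr13:59782610-59782633, Igf2bp2 chr16:21878222-21878245, Igf2bp3 chr6:49063720-49063743 and, for Lin28b, the match nearest the stop codon, chr10:45257117-45257140, all on the minus strand.
Golm1, miR-22, first: acagagtagactgagGGCAGCTgc
Golm1, miR-22, second: tctagttctccacagGGCAGCTtt
Igf2bp2, let-7: acacacaaataaaagCTACCTCag
Igf2bp3, let-7: tgcatttttactcaaCTACCTCag
Lin28b, let-7: acccgggcgggaagtCTACCTCat

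The part of these matches in the levels was not tested, and the miRNAs themselves were not measured in these libraries of mRNA.

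A gene was called in edgeR where its adjusted p (Benjamini-Hochberg) was below 0.05 and it differed by over 1.5-fold, across all 15717 genes that passed the count filter. Of the 10 genes 8 passed it, Lin28b and Tff3 did not, and Gpc3, Mdk, Igf2bp3, Bex1 and Spink1 passed through the HCC livers, since fewer than 3 of their healthy livers were above its limit of 0.545 CPM. Between untreated HCC and healthy livers, 7 of the 8 were called higher and Igf2bp3 was not called, where 22.7% of all tested genes were called higher and 18.1% lower. The same 7 genes had livers that did not overlap, as did 33.9% of all tested genes in that direction. Between miR-22-treated HCC and healthy livers, the 7 genes were again called higher and did not overlap, against 16.9% called higher, 7.05% called lower and 26.6% not overlapping and higher over all genes. These 2 comparisons share the healthy livers. Between the HCC groups, Afp, Gpc3, Golm1 and Bex1 were called lower with miR-22, and 5 genes, these and Spink1, had treated livers all below the untreated ones. Over all tested genes 5.47% were called lower, 8.32% were called higher and 19.6% were lower without overlap. Since the 10 genes were picked with these contrasts known, nothing is read from the difference between such shares.

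**Figure D3:**
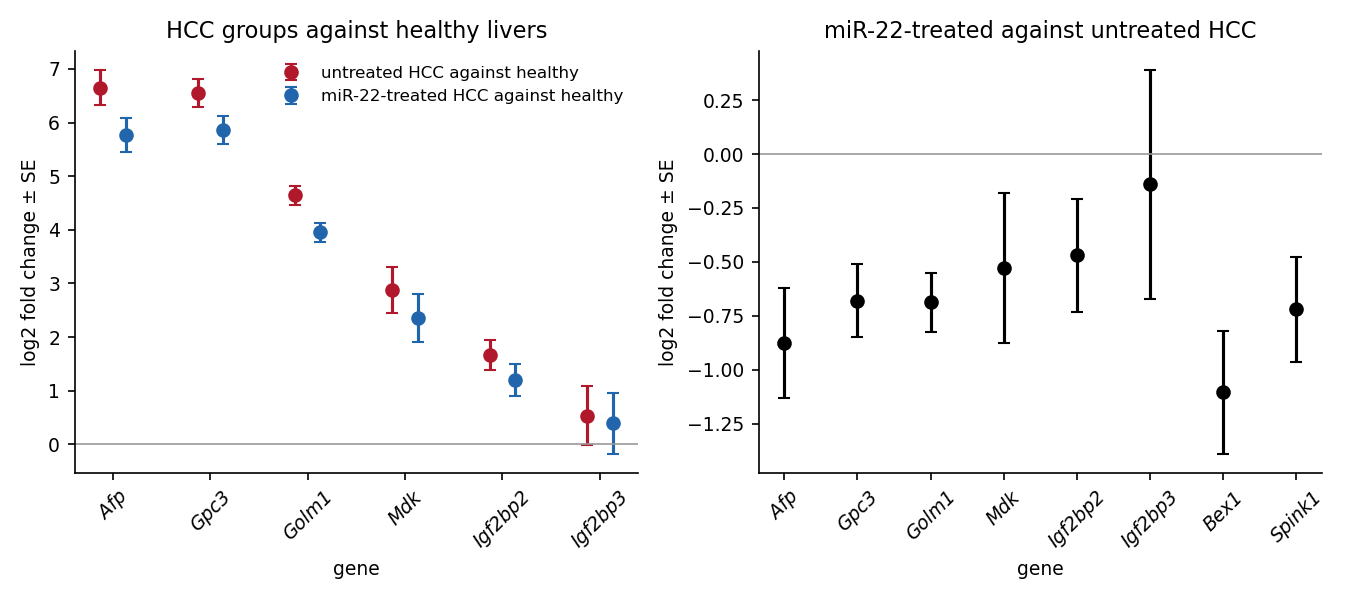
Log2 fold changes (points) with standard errors (bars) from edgeR, left for both HCC groups against healthy livers, right for miR-22-treated against untreated HCC. Bex1 and Spink1 are left out on the left side because healthy livers had 0 counts; on the right, values run from −1.11 (Bex1) to −0.14 (Igf2bp3).

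The calls between the HCC groups depended on single livers. Golm1 kept its call whichever liver was left out, with log2 fold changes from −0.87 to −0.60. Afp lost its call without untreated replicate 2 (−0.57), untreated replicate 3 (−0.93) or treated replicate 3 (−0.67), and Gpc3 without untreated replicate 2 (−0.63) or treated replicate 3 (−0.57). Bex1 was no longer called without untreated replicate 2 (−1.09), untreated replicate 3 (−0.92), treated replicate 2 (−0.99) or treated replicate 3 (−0.89). Without untreated replicate 2 or without treated replicate 3, Golm1 was the 1 gene of the 10 left with a call. In each of these fits the log2 fold changes of Afp, Gpc3, Golm1, Bex1 and Spink1 stayed below 0.

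**Figure D4:**
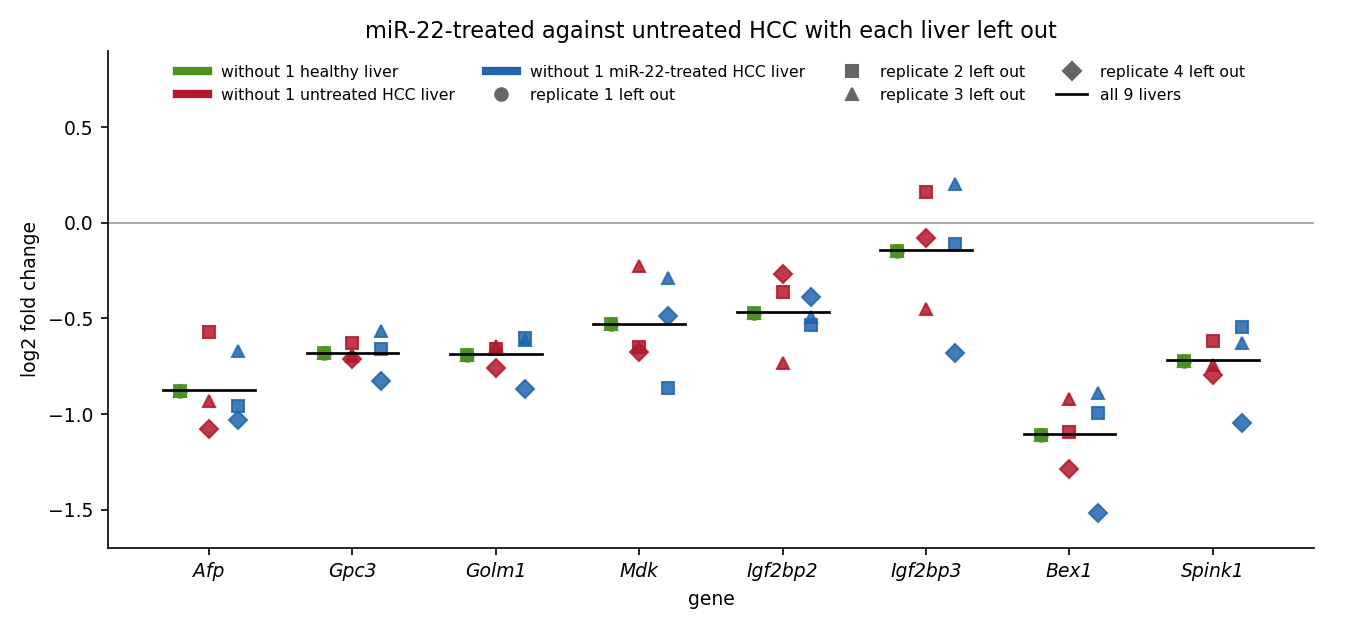
Log2 fold change of 8 genes between miR-22-treated and untreated HCC with 1 liver left out at a time; color gives the group and shape the replicate of the liver left out, and black bars give the value with all 9 livers. Values for 7 genes stay below 0, while Igf2bp3 runs from −0.68 to 0.20.

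The treated livers were not alike. Treated liver 4 had the highest treated level for 7 of the 9 genes with counts in that group, and treated liver 2 for Mdk and Igf2bp2. As a share of the untreated mean, treated livers 2, 3 and 4 were at 60.4%, 37.6% and 65.5% for Afp, at 60.3%, 52.2% and 74.5% for Gpc3, and at 38.7%, 30.9% and 68.3% for Bex1. For Spink1 the shares were 44.6%, 52.1% and 84.2%. Liver 4 was thus the liver nearest to untreated HCC for these 4 genes. It was also highest of the treated livers for Akt1, the mouse gene from the same family as the injected AKT, which had 797, 671 and 1104 CPM in treated livers 2, 3 and 4, and for the proliferation gene Mki67, which had 44.3, 34.9 and 55.6 CPM. Nras had 55.3, 53.3 and 55.1 CPM in the same livers. Of the marker sums, liver 4 had the lowest hepatocyte sum of the treated livers (83530 CPM) and the highest cholangiocyte (2740 CPM) and stellate sums (474 CPM). Its neutrophil sum was the lowest (8.56 CPM). Whether these values bear on the markers was not tested.

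**Figure D5:**
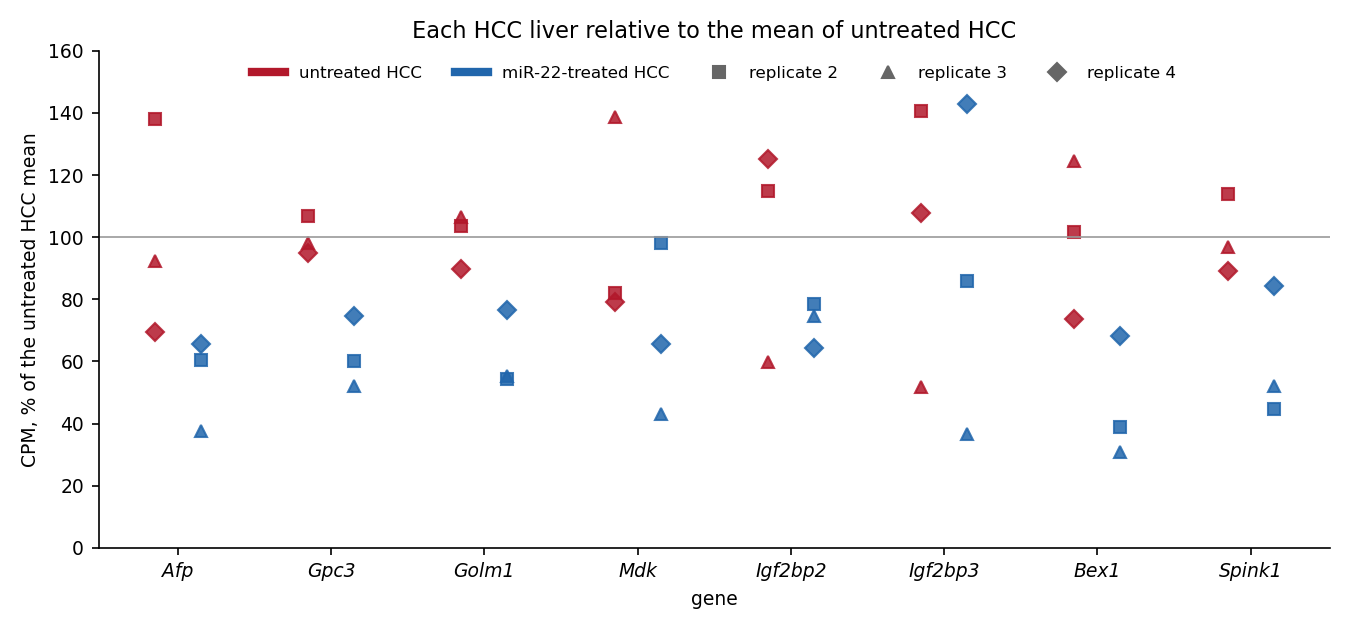
CPM of 8 genes in each HCC liver as a percentage of the gene's mean in untreated HCC, with untreated livers in red, miR-22-treated livers in blue and a shape for each replicate number. Treated liver 4 (diamonds) is the highest treated liver for Afp, Gpc3, Golm1, Igf2bp3, Bex1 and Spink1.

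The spread between livers differed among the genes. Afp varied more than most genes of like level in each group: its coefficient of variation was 22.7%, 34.9% and 27.3% in healthy livers, untreated HCC and treated HCC, at percentiles 94.5, 95.2 and 93.2 of genes of like level. Bex1 was at percentiles 95.3 and 97.2 in the 2 HCC groups. Gpc3 was at percentiles 92.8, 41.3 and 88.2 in healthy livers, untreated HCC and treated HCC, with coefficients of variation of 69.7%, 6.09% and 18.1%.

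Across the 9 livers the log2 CPM of Afp, Gpc3, Golm1, Mdk, Igf2bp2, Bex1 and Spink1 correlated pairwise with r from 0.797 to 0.997, whereas Igf2bp3 correlated with these 7 at 0.259 to 0.375. These values describe 9 points that fall into 3 groups, so the differences between groups set most of each r. Among all tested genes, the patterns most like that of Afp were those of Rian, Diaph3 and Col3a1 (r = 0.997 each). For Gpc3 they were Emp1, Stc1 and Gm47815, for Golm1 Vill, Osbpl3 and Col3a1, for Mdk Dnmt1, Efemp2 and Mastl (0.990 to 0.991), and for Igf2bp2 Slc35f5, Il22ra1 and Gm14936 (0.969 to 0.972). For Bex1 they were Mki67, Spp1 and Meg3 and for Spink1 Anxa5, Cd63 and Lgals1. The nearest gene to Igf2bp3, Lsmem2, reached 0.905, followed by Creld1 (0.897) and Rnf113a2 (0.867).

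Of 10 regulators of Afp reported here, which are part of a longer list, edgeR called 3 lower in untreated HCC, namely Cebpa (log2 −1.32, SE 0.14, adjusted p = 7.44e-06), Hnf4a (−0.71, SE 0.13, adjusted p = 0.00039) and Foxa3 (−0.67, SE 0.20, adjusted p = 0.0111), where 18.1% of all tested genes were called lower. The call of Foxa3 was lost without healthy replicate 1 (−0.49) and with the replicate block (−0.41). Zhx2 and Zbtb20, which silence Afp after birth, were not called: Zhx2 had 16.9 to 19.2 CPM in healthy livers, 13.9 to 20.2 CPM in untreated HCC and 16.5 to 19.8 CPM in treated HCC, and Zbtb20 differed by −0.22 (SE 0.17, adjusted p = 0.301). Zfhx3, Foxa1, Foxa2, Cebpb and Nr5a2 were not called in untreated HCC, although Foxa2 was in 6 of 17 alternatives, among them those without healthy replicate 1 (−0.65), healthy replicate 2 (−0.61), untreated replicate 3 (−0.61) or untreated replicate 4 (−0.59). With miR-22, Cebpb rose (1.07, SE 0.16, adjusted p = 0.000773) and the other 9 of these genes were not called, although Cebpa was without the fold threshold, without untreated replicate 4 (0.72) or treated replicate 4 (0.62).

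Among 3 other genes linked to Zhx2 in the liver, H19, an imprinted fetal RNA, rose from 1.32 to 6.54 CPM in healthy livers to 449 to 603 CPM in untreated HCC (log2 7.18, SE 0.39, edgeR adjusted p = 3.43e-08), and it had 382 to 516 CPM in treated HCC (−0.21, SE 0.28, adjusted p = 0.639). Lpl, lipoprotein lipase, rose in untreated HCC (2.80, SE 0.18, adjusted p = 1.25e-07). It fell with miR-22 (−0.64, SE 0.16, adjusted p = 0.0137), a call lost without untreated replicate 2 (−0.55), treated replicate 3 (−0.62) or treated replicate 4 (−0.50). Elovl3, a fatty acid elongase, fell in untreated HCC (−1.67, SE 0.46, adjusted p = 0.00744), a call lost with the replicate block (−1.60).

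In the glypican and syndecan family, Gpc1 (log2 1.89, SE 0.26, edgeR adjusted p = 4.67e-05) and Gpc6 (1.70, SE 0.25, adjusted p = 9.56e-05) rose in untreated HCC from 1.13 to 1.70 CPM in healthy livers, and Gpc2 (1.38, adjusted p = 0.0683), Gpc4 and Sdc3 were not called. Gpc2 was called in 4 of 16 alternatives, among them those without healthy replicate 2 (2.22) or treated replicate 4 (1.38). Gpc5 had at most 0.126 CPM. Sdc1, Sdc2 and Sdc4 fell, Sdc4 furthest, from 582 to 659 CPM down to 162 to 212 CPM (−1.68, SE 0.16, adjusted p = 1.85e-06). With miR-22, Sdc4 rose (1.52, SE 0.16, adjusted p = 9.03e-05) and none of the other 7 tested was called, although Gpc2 was called lower without treated replicate 4 (−1.97, where the range over the alternatives was −1.97 to −0.64). The call of Sdc1 in untreated HCC (−0.61) was lost in 4 of 17 alternatives, among them those without untreated replicate 3 (−0.58) and with upper-quartile scaling (−0.57).

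Of the midkine list, Itga6, a laminin-binding integrin chain that midkine engages, rose in untreated HCC (log2 3.50, SE 0.14, edgeR adjusted p = 4.79e-09) and fell with miR-22 (−0.69, SE 0.12, adjusted p = 0.0016). Itgb1 rose by less (0.63, SE 0.10, adjusted p = 0.000198), a call lost without untreated replicate 2 (0.54). Pleiotrophin, Ptn, the only relative of midkine, had 0.063 to 0.165 CPM in healthy livers, 0.890 to 1.12 CPM in untreated HCC and 0.915 to 1.76 CPM in treated HCC. The receptors Lrp1 (−0.86, adjusted p = 0.000352) and Nrp1 (−1.31, adjusted p = 1.02e-05) and the integrin chain Itga4 (−0.70, adjusted p = 0.000764) fell in untreated HCC, and Nrp1 rose with miR-22 (0.79, SE 0.15, adjusted p = 0.00276). Ncl was not called. Notch2 was not called either, but its difference with miR-22 (−0.58, SE 0.11, adjusted p = 0.00328) lay just inside the 1.5-fold limit and was called lower in 10 of 17 alternatives, DESeq2 (−0.61) among them and also without untreated replicate 2 (−0.62), untreated replicate 4 (−0.59) or treated replicate 2 (−0.68). The neural receptors Alk and Ptprz1 had at most 0.281 CPM.

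Of 10 relatives of Bex1, 6 passed the filter. All 6 of the Bex and Tceal genes that passed the filter were called higher in untreated HCC: Bex3 (log2 4.60, SE 0.37), Bex4 (3.65, SE 0.48), Tceal1, Tceal5, Tceal8 and Tceal9. Of all tested genes, 22.7% were called higher there, but Bex3, Bex4, Tceal1 and Tceal5 passed the filter through the HCC livers where they are high. Nothing is therefore read from the count, and no p-value against healthy livers is given for them. Tceal5 had 0 counts in healthy livers and was at least 26.5-fold higher in untreated HCC. Tceal1 (1.20, SE 0.40) lost its call without healthy replicate 2 (0.94), healthy replicate 3 (1.06) or untreated replicate 3 (0.91). With miR-22, Bex3 fell (−1.13, SE 0.28, edgeR adjusted p = 0.0118), from 13.8 to 23.8 CPM down to 5.61 to 12.3 CPM, a call lost without untreated replicate 3 (−0.89) or treated replicate 3 (−0.92). The other 5 were not called, where 5.47% of all tested genes were called lower. Bex2, Bex6, Tceal3 and Tceal6 did not pass the filter.

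In the list of 19 genes of the LIN28 and let-7 axis, 16 passed the filter, and 6 were called higher and 3 lower in untreated HCC, where 22.7% of all tested genes were called higher and 18.1% lower. Igf2 passed the filter through the HCC livers and Plag1 through the healthy livers, so nothing is read from these counts. The calls of Arid3a (log2 0.83, SE 0.33, edgeR adjusted p = 0.0485) and Myc (0.78, SE 0.31, adjusted p just below 0.05) were each lost in 8 of 17 alternatives, with log2 fold changes down to 0.61 without healthy replicate 2 for Arid3a and, among the livers left out, 0.55 without healthy replicate 1 for Myc. Mycn rose (log2 4.33, SE 0.25, edgeR adjusted p = 5.2e-08), as did the cyclin gene Ccnd2 (2.14, SE 0.19, adjusted p = 1.61e-06) and the phosphatase gene Cdc25a (1.72, SE 0.17, adjusted p = 2.75e-06). Igf2, the fetal growth factor whose mRNA the Igf2bp proteins bind, had 0 counts in healthy livers and was at least 38.3-fold higher in untreated HCC. Nr6a1 (−1.16, SE 0.16, adjusted p = 5.33e-05) and Plag1 fell, Plag1 from 1.01 to 1.37 CPM down to 0.0374 to 0.0937 CPM. With miR-22, Mycn (−0.84, SE 0.19, adjusted p = 0.00702) and Ccnd2 (−1.09, SE 0.19, adjusted p = 0.00161) fell and Nr6a1 rose (0.74, SE 0.16, adjusted p = 0.00634). Cdc25a differed by −0.58 (SE 0.16, adjusted p = 0.0185), just inside the 1.5-fold limit, and was called lower in 12 of 17 alternatives (range −0.74 to −0.48). Igf2 was not called, at 6.09 to 7.92 CPM in untreated and 6.33 to 13.1 CPM in treated HCC.

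Of 26 other tested liver cancer markers, 17 were called higher and 2 lower in untreated HCC, and 9 were called lower with miR-22, where the shares over all tested genes were 22.7%, 18.1% and 5.47%. Of the 17, Cdkn3, Peg10, Dlk1, Igdcc4 and Tspan8 passed the filter through the HCC livers where they are high, so nothing is read from the count or from the median of this list. The calls of Hspa1b and Thy1 in untreated HCC were each lost in 6 of 17 alternatives and that of Hspa1a in 3, with log2 fold changes down to 1.06 without untreated replicate 2 (Hspa1b), 0.46 without healthy replicate 2 (Thy1) and 1.37 without untreated replicate 2 (Hspa1a) among the livers left out. Hspa1a and Hspa1b are near-identical copies, and reads may be split between them. The call of Peg10 with miR-22 (log2 −0.86, SE 0.29, edgeR adjusted p = 0.0492) was lost in 11 of 16 alternatives (range −1.19 to −0.69). Chosen for naming by smallest p in untreated HCC were Tspan8, a tetraspanin (log2 6.93, SE 0.23), Spp1 (7.43, SE 0.32, edgeR adjusted p = 6.92e-09), the transcription factors Sox4 (5.65, SE 0.30, adjusted p = 3.31e-08) and Sox9 (4.84, SE 0.30, adjusted p = 8.26e-08), Cd24a (5.15, SE 0.29, adjusted p = 4.82e-08) and Igdcc4 (5.02, SE 0.35). No p-value against healthy livers is given for Tspan8 and Igdcc4, which passed the filter through the HCC livers. With miR-22, Tspan8 fell by 1.12 on the log2 scale (adjusted p = 0.000426), Sox9 by 1.57 (adjusted p = 0.000885), Sox4 by 1.37 (adjusted p = 0.00148), Spp1 by 1.20 (adjusted p = 0.00414) and Cd24a by 1.04 (adjusted p = 0.00556), and Igdcc4 was not called (−0.63, adjusted p = 0.079) but was in 4 of 16 alternatives, among them those without untreated replicate 4 (−0.82) or treated replicate 4 (−0.79). The median log2 fold change of this list was 2.01 in untreated HCC and −0.64 with miR-22, where all tested genes had medians of 0.01 and 0.00. The proteases that process the Golm1 product, Furin, Pcsk5, Pcsk6 and Pcsk7, were not called in either comparison, with log2 fold changes of −0.54 (Furin) to −0.14 (Pcsk5) in untreated HCC. Furin passed the limit there without healthy replicate 3 (−0.59) or untreated replicate 4 (−0.62), as Pcsk6 did without untreated replicate 4 (−0.62) and with the replicate block (−0.59).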

How the data were processed

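Paired reads of non-directional libraries were quantified by the authors in Salmon (GRCm39, GENCODE annotation) and imported by tximport, and the deposited file holds whole-number counts for 55401 genes, neither normalized nor filtered. The submitters' processing notes name FastQC 0.11.7 and DESeq2 1.18. A second deposited table, of normalized values, was not used. Totals were 18258660, 18355692 and 20964551 counts in healthy livers, 18533265, 18293676 and 23908392 in untreated HCC and 17590174, 16664659 and 20459853 in miR-22-treated HCC, so that 3 counts equal 0.112 to 0.191 CPM. Floors cover counting error only.

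Counts were fitted in R 4.3.3 with edgeR 4.0.16 (TMM scaling, filter by filterByExpr, two-sided quasi-likelihood test, all 9 libraries fitted together with group as the only term), and p-values were adjusted by Benjamini-Hochberg over 15717 genes. CPM are TMM-scaled, errors are SD over 3 livers, and correlations used log2 CPM with a prior count of 2. Nothing in the labels says more of the livers than that they are separate samples, and p-values measure the spread between them. Pairs of livers within a group differed beyond sampling noise (chi-square per degree of freedom 6.59 to 31.3). The 10 genes, the related lists and the markers were chosen with earlier results of these data known, and some listed genes are not reported here. Named from a related list were all members where it had 12 or fewer and otherwise up to 6 called genes with the smallest p, and as most alike the 3 genes with the highest r. Loci, exon overlaps and 3′ UTRs came from GENCODE vM39 (GRCm39), in which 51731 of the gene identifiers were found, and miRNAs and promoters from RefSeq (GRCm38.p6). The pipeline was tested on simulated data. Alternatives were DESeq2 1.42.0, its size factors, upper-quartile scaling, other filters, no fold threshold, a fit to 2 groups, the replicate number as a block and each liver left out. Figures were drawn with Python 3.11.15 and matplotlib 3.10.9.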

Additional observations from a re-analysis of the deposited data

How the results depend on the processing

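With at least 10 counts required in every library, 3 of the 10 genes were still tested, and 3 were called in untreated HCC against healthy livers, 2 with miR-22 against untreated HCC and 3 in treated HCC against healthy livers, because the filter removes genes with few healthy counts. Without the fold threshold, 3777 genes and 32 related genes were called between the HCC groups (2167 and 19 with it) and 5732 genes between treated HCC and healthy livers (3772 with it). Leaving out each liver in turn gave 1433 to 2660 genes called between the HCC groups, and 1 to 5 of the 10 genes, the fewest without untreated replicate 2 or treated replicate 3. The log2 fold change of Igf2bp3 turned to 0.16 without untreated replicate 2 and to 0.20 without treated replicate 3 (range −0.68 to 0.20), and against healthy livers to −0.15 without treated replicate 4 (range −0.15 to 0.74); 5 to 26 counts limit this gene, and the cause was not tested. Spink1 was called lower with miR-22 by DESeq2 (−0.75), with DESeq2 size factors (−0.75), with upper-quartile scaling (−0.76) and with no filter (−0.72). Over all alternatives, 374 fold changes of the 8 genes that passed the filter kept direction and call, 10 lost a call and 6 gained one, these 4 of Spink1 included, and Tff3 was called higher in both HCC groups against healthy livers with no filter.

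Same-numbered livers of different groups did not deviate together (7 pairs with r −0.24 to 0.03, and 20 other pairs with −0.06 to 0.13). With 3 livers per group these values cannot exclude that the numbers pair the livers in some way. With the replicate block, 1745 genes were called between the HCC groups and 3 of the 10 genes, Bex1 losing its call at a log2 fold change of −1.15.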
